A study of Rattus norvegicus with 4 samples.

Results

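Oxidative phosphorylation subunits are the protein parts of the 5 complexes in the inner mitochondrial membrane that turn the oxidation of nutrients into ATP. The genes described here were those whose only platform-annotated symbol starts with Nduf, Uqcr, Cox4 to Cox8 or Atp5, or is Sdha, Sdhb, Sdhc or Sdhd, each represented by its probe set with the brightest mean over 4 arrays. This gave 86 of the 14217 genes with a single symbol. They comprised 36 genes named as subunits of complex I, 6 of its assembly factors, 4 subunits of complex II, 7 of complex III, 17 of complex IV and 16 genes of complex V, the ATP synthase. The symbol rule also took in Cox6c-ps1, a transcribed pseudogene of Cox6c, and Atp5if1, an inhibitor of the ATP synthase. Probe sets that name several genes were outside the rule, which left out 7 probe sets of further subunits, among them those of Cox7a2, Uqcrb, Ndufs5 and Ndufa10.

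Dissociated retinal cells of embryonic day 18 Sprague Dawley rats had been grown as neurospheres, floating clusters of dividing cells, from pooled embryos. All cultures received epidermal growth factor (EGF), a mitogen of neural progenitors. The control group, called EGF below, received EGF alone, and the treated group received EGF plus conditioned medium of endothelial cells, which form the inner wall of vessels. Each group had 2 Affymetrix Rat 230 2.0 arrays from biological replicates 1 and 2. The p-values, from limma, set a difference against the spread between the 2 cultures of a group. That spread was estimated largely from all genes together, and on deposited values the gene's own spread had no weight. The labels do not give the source of the endothelial cells and name no cell sorting, so each array measured whole cultures. In such bulk samples, fewer cells of a type and less RNA per cell cannot be told apart.

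Complex I (NADH dehydrogenase) and complex II (succinate dehydrogenase) pass electrons from NADH and succinate to coenzyme Q, complex III passes them to cytochrome c, and complex IV (cytochrome c oxidase) passes them to oxygen. Complexes I, III and IV pump protons, and complex V lets the protons flow back to make ATP. Most subunits are encoded in the nucleus, several have isoforms restricted to muscle, testis or other tissues, and the retina, above all its photoreceptors, is among the tissues with the highest oxygen use.

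The deposited arrays had not been brought to a common scale. Array medians over 31099 probe sets were 6.03 and 6.25 log2 with EGF and 6.84 and 6.56 log2 with conditioned medium. Values below are therefore quantile normalized log2 values, which give all arrays 1 distribution, unless they are called deposited. A gene is said to have risen or fallen only where it passed an adjusted p under 0.05 (limma) in the same direction on quantile normalized, deposited and median-centred values. The median difference of all 11491 genes tested was 0.00, 0.40 and -0.16 log2 on these scales in turn. As a measure of RNA integrity, the actin controls read 1.99 and 2.08 log2 more at the 3' than at the 5' end in the EGF arrays and 1.54 and 1.37 log2 more in the treated arrays. The progenitor markers Pax6 and Sox2 were bright in all arrays, while Six3 was the dimmest of 8 progenitor markers (6.78 log2 as deposited). Of these 8 markers 3 rose and 0 fell. After quantile normalization 4 were higher and 1, Rax, was lower (-0.24 log2, against 0.08 log2 as deposited). Pax6 differed by -0.15 log2 after quantile normalization and did not pass. The summed linear signal of the 8 was 19330.5 to 21069.5 with EGF and 22366.9 to 23299.5 with conditioned medium. Of 7 photoreceptor markers 5 fell, and their summed linear signal went from 6550 to 6828 with EGF to 2020 to 2055 with conditioned medium. Of 7 markers of other retinal neurons 5 fell, with sums of 11151 to 11321 against 6248 to 6622. Of 9 mesenchymal markers 7 were tested and 6 rose (449 to 456 against 1528 to 1694), and Dcn and Lum were below the limit for dim probe sets. Of 9 microglia markers 7 were tested and 4 rose (342 to 369 against 594 to 656), and C1qb and Itgam were below that limit. Of 7 endothelial markers 3 were tested and 0 rose (Kdr was higher after quantile normalization, by 0.41 log2), and Pecam1, Tek, Tie1 and Emcn were below it. Of tested markers, 2 of 5 of Muller glia, 1 of 3 of pigment epithelium, 1 of 3 of muscle (Tnnt2) and 0 of 2 of lens rose, and 0 fell. The Muller glia marker Rlbp1 was lower after quantile normalization (-0.70 log2) and differed by -0.38 log2 as deposited. Aqp4, a dim Muller glia marker, differed by -0.57 log2 after quantile normalization and did not pass, while the other 3 were higher. The sums of the Muller glia markers were 11236 to 13600 against 19953 to 20818. Vim, the brightest of them, weighed most in these sums (13.04 and 12.58 log2 against 13.76 and 13.84 log2). Of the pigment epithelium markers 1 was lower after quantile normalization, and their sums were 464 to 476 against 363 to 390. The part of these shifts and of the actin gap in the values below was not tested.

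Nuclear genes of the respiratory chain are known to be driven by the factors NRF1, GABP (an ETS factor) and YY1. RefSeq promoter windows on GRCr8, from 250 bases before to 50 bases after the gene start, were found for 78 of the 86 genes. The NRF1 motif (GCGCA, then any base, then GCGC) was found on either strand in 15 of 78 windows (19.2%), the ETS motif CCGGAAG in 22 (28.2%) and the YY1 motif AANATGGC in 32 (41%). The windows of genes tested here, 10733 in all, held them in 9.32%, 16.5% and 9.64%. Many of the YY1 matches in members began after the gene start, from base 2 in Atp5po to base 39 in Sdha. Whether the factors bind at any of these matches was not tested. Of the member windows, 53 held at least 1 motif (67.9%, against 30.2% of the windows of genes tested), and 0 pairs of different motifs overlapped there. The 250 bases before the start are shown for 4 members the results turn on, with motif matches in capitals: Cox6b2, the only member that rose (chr1:78122621-78122870, plus strand), Ndufb10 (chr10:14255967-14256216, minus strand, a YY1 match) and Ndufv3 (chr20:9613536-9613785, plus strand, an NRF1 match), which had the lowest differences from EGF, and Ndufa5 (chr4:53971236-53971485, minus strand, an NRF1 match), which was low in a single array.
Cox6b2: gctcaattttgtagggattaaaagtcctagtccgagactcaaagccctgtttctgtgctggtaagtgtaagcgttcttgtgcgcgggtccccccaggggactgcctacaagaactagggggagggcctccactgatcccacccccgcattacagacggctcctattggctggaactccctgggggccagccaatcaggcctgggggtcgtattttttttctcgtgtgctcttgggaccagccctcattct
Ndufb10: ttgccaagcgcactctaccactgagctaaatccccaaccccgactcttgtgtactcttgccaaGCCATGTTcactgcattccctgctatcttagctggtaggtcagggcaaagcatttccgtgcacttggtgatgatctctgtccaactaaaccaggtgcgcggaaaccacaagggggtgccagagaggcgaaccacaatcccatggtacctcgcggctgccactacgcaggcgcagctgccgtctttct
Ndufv3: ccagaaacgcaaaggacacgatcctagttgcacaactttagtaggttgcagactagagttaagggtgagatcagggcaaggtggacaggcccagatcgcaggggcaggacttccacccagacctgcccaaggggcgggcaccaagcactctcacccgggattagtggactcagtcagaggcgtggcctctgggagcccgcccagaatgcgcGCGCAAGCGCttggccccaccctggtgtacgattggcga
Ndufa5: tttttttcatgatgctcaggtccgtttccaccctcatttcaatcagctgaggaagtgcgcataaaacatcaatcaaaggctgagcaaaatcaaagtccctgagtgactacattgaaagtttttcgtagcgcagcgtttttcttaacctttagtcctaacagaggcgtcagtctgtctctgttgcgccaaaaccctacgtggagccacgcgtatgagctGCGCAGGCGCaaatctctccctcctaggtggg
The window of Cox6b2 held none of these letter strings. Of the factors, Nrf1, Gabpa and Yy1 did not pass the test. Nrf1 was at 8.93 and 8.92 log2 with EGF and 8.66 and 8.77 log2 with conditioned medium (-0.21 ± 0.09 SE, limma adjusted p = 0.111), Gabpa differed by 0.02 ± 0.08 log2 and Yy1 by 0.02 ± 0.07 log2. The second GABP subunit gene Gabpb1 was lower after quantile normalization (-0.36 ± 0.08 SE) and differed by -0.03 log2 as deposited.

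The comparison asked how the subunit genes differ when endothelial conditioned medium is added to EGF. They differed little. Of 83 members bright enough to be tested, 1 rose under all 3 scalings, the complex IV isoform Cox6b2, and 0 fell, where 9.12% of all genes tested rose and 1.78% fell. At an unadjusted p under 0.05 in limma, the counts under all 3 scalings were 1 and 0 as well, against 1353 and 269 of all genes tested. The deposited scale set which genes could fall: the 205 genes lower on it were those that fell under all 3 scalings. As deposited, 81 of the 83 members differed by more than 0, so the count of 0 that fell says little by itself. On quantile normalized values alone, 3 members were higher and 7 lower (12% in all), against 16.4% and 14.6% of all genes tested. At an unadjusted p under 0.05 in limma these were 6 and 12 members, against 2520 and 2284 of the 11491 genes tested. The median member differed by -0.05 log2, within a range of -0.37 to 0.94 log2, and 80 of 83 differed by less than 0.5 log2 in either direction (96.4%, against 80.8% of all genes tested).

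**Figure D1:**
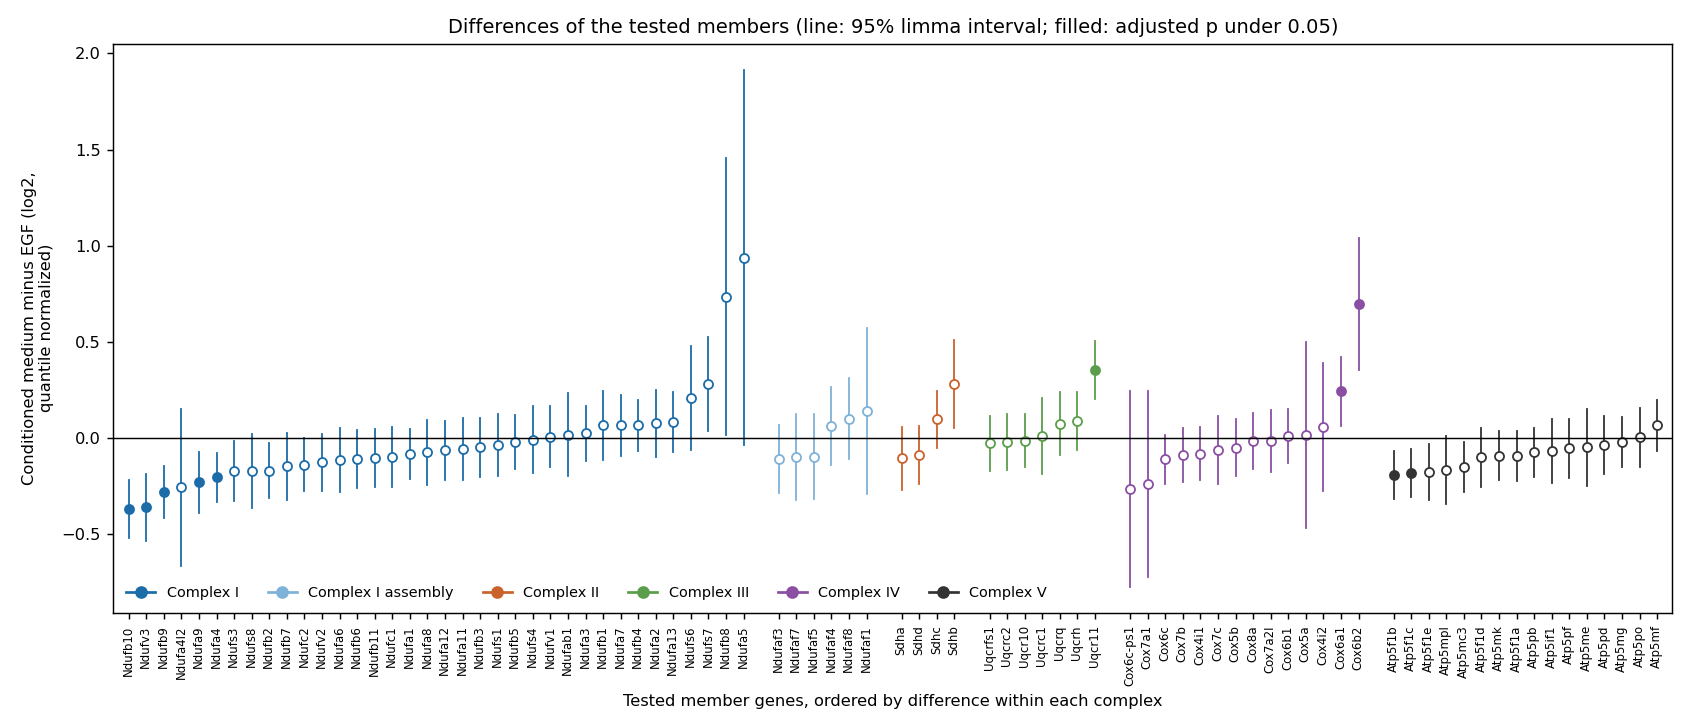
Difference between conditioned medium and EGF for each of the 83 tested members (y axis, log2, quantile normalized), grouped by complex along the x axis. Points are differences of 2-array means, lines are 95% limma intervals, and filled points had an adjusted p under 0.05. Most points lie near 0, and Ndufa5, Ndufb8 and Cox6b2 are the 3 members beyond 0.5 log2.

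Probe-set brightness, which is no transcript level, sets the precision, and members were bright, with a median deposited mean of 11.40 log2 against 7.95 log2 for all genes. The 1165 genes at least as bright as the members' lower quartile (10.80 log2), which include 62 members, give a nearer background. Of these 1165 genes, 17.7% were higher and 17.9% lower, and 90.2% differed by less than 0.5 log2. Of the 62 members among them, 2 were higher, 6 were lower, and all 62 differed by less than 0.5 log2. Under all 3 scalings 0 of the 62 rose and 0 fell (limma, also 0 at an unadjusted p under 0.05), against 4.29% and 2.58% of the 1165 genes. As deposited 13 of the 62 were higher and 0 lower, against 40.3% and 2.58%, and with median-centred arrays 0 were higher and 41 lower, against 4.29% and 49.7%. Groups did not overlap in 8 of the 62 that were higher and 26 that were lower, against 34.6% and 35.2% of the 1165 genes. The SD of the differences was 0.12 log2 over the 62 members and 0.30 log2 over the 1165 genes. After quantile normalization the whole 95% interval lay within 0.5 log2 of 0 for 59 of the 62 members (95.2%, against 80.6% of the 1165 genes). The same held for 71 of all 83 members (85.5%, against 50.2% of all genes tested).

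**Figure D2:**
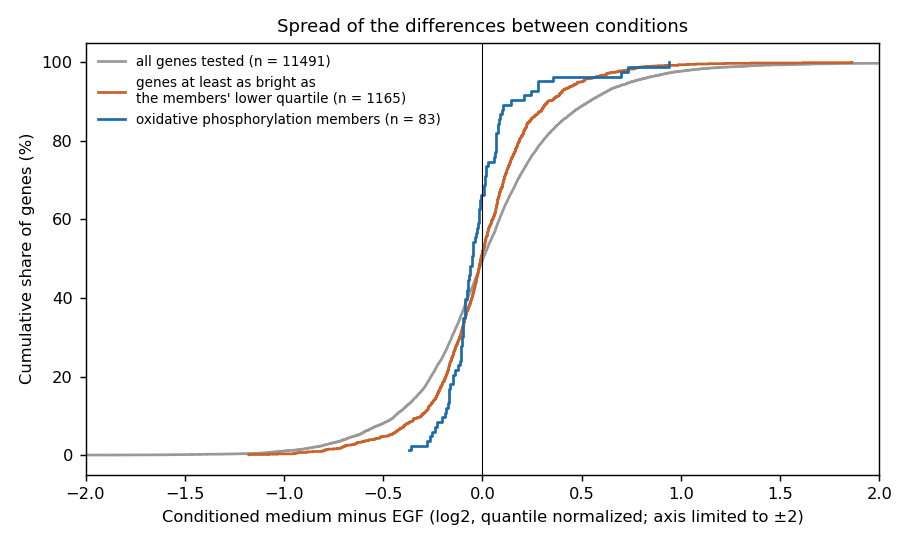
Cumulative share of genes (y axis, percent) by difference between conditions (x axis, log2, quantile normalized) for the 83 tested members, the 1165 genes at least as bright as the members' lower quartile and all 11491 genes tested. The curve of the members is the steepest near 0.

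The sign of the members' median depended on the scaling. It was 0.28 log2 on deposited values, where 19 members were higher and 0 lower (40.4% and 1.78% of all genes tested). At an unadjusted p under 0.05 in limma these were 30 and 0 members, against 5647 and 269 of the 11491 genes tested. On median-centred values the median was -0.29 log2, with 1 member higher and 47 lower (10.2% and 32.2% of all genes tested). The median of the 62 bright members differed from that of the equally bright genes by -0.05 log2 after quantile normalization and by -0.04 log2 as deposited, and centring the arrays leaves the latter value as it is by construction. On quantile normalized values the 2 arrays of each group did not overlap in 34 of the 83 tested members that were lower and 11 that were higher, against 32.6% and 33.6% of all genes tested. The medians of the complexes after quantile normalization ran from -0.08 log2 for complex V and -0.07 log2 for complex I to 0.01 log2 for complex III, and differences between complexes were not tested.

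**Figure D3:**
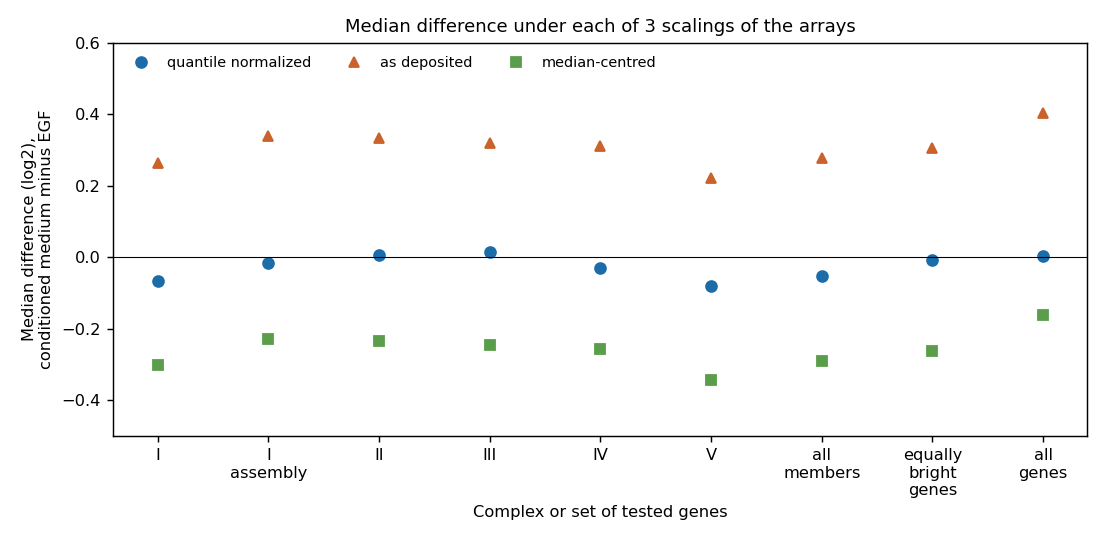
Median difference between conditioned medium and EGF (y axis, log2) for the tested members of each complex, all members, the equally bright genes and all genes tested (x axis), under 3 scalings of the arrays. Medians are positive on deposited values and negative on median-centred values in every set, and lie between -0.08 and 0.01 log2 after quantile normalization.

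Of the 36 genes named for complex I, 5 were lower after quantile normalization (13.9%, near the 14.6% of all genes tested) and 0 higher, and 0 rose or fell under all 3 scalings. They were Ndufb10, Ndufv3, Ndufb9 and Ndufa9, accessory subunits that surround the catalytic core, and Ndufa4. Ndufb10, of the membrane arm, was at 11.87 and 11.90 log2 with EGF and at 11.45 and 11.58 log2 with conditioned medium. Both treated arrays lay below both EGF arrays, a difference of -0.37 ± 0.07 log2 (SE, limma adjusted p = 0.00218). On deposited values the groups overlapped and differed by -0.06 log2. Ndufv3, a small subunit of the NADH-binding module, was at 10.40 and 10.49 log2 with EGF and at 10.04 and 10.13 log2 with conditioned medium (-0.36 ± 0.08 SE, adjusted p = 0.00561). Its groups did not overlap after quantile normalization and overlapped as deposited (-0.04 log2). Its other, dimmer probe set differed by -0.12 log2.

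Ndufb9, a further subunit of the membrane arm, was at 12.27 and 12.25 log2 with EGF and 11.95 and 12.01 log2 with conditioned medium (-0.28 ± 0.06 SE, limma adjusted p = 0.00521). Ndufa9, at the junction of the 2 arms, went from 11.09 and 11.14 log2 to 10.83 and 10.94 log2 (-0.23 ± 0.07 SE, adjusted p = 0.0333). Ndufa4, named as a complex I subunit and now assigned to complex IV, went from 12.81 and 12.86 log2 to 12.60 and 12.67 log2 (-0.20 ± 0.06 SE, adjusted p = 0.0223). In these 3 genes the groups did not overlap after quantile normalization, while on deposited values they overlapped and the sign turned, to 0.02, 0.08 and 0.10 log2. When a single array was dropped, 0 to 2 members were still lower, and the 2 were those left when the second treated array was dropped.

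The 6 measured core subunits of complex I, which carry the electrons, had a median of -0.08 log2 and 0 calls (limma; 1 higher and 1 lower at an unadjusted p under 0.05), between -0.17 log2 for Ndufs3 and 0.28 log2 for Ndufs7. Ndufs1, the largest subunit with several iron-sulfur clusters, was at 10.68 and 10.67 log2 with EGF and 10.59 and 10.69 log2 with conditioned medium, and its groups overlapped (-0.04 ± 0.07 SE). Ndufv1, the subunit that binds NADH, differed by 0.01 ± 0.07 log2. Ndufb1, of the membrane arm, was at 10.84 and 11.00 log2 with EGF against 11.05 and 10.93 log2 with conditioned medium, and its groups overlapped (0.07 ± 0.08 SE). Ndufa4l2, a relative of Ndufa4 known to be induced by low oxygen, was dim, at 6.13 and 6.15 log2 with EGF and 5.87 and 5.90 log2 with conditioned medium (-0.25 ± 0.19 SE, limma adjusted p = 0.324). Its treated arrays were the lower ones here, but as deposited its difference was 0.37 log2. The 6 assembly factors, which help to build complex I and leave it, ranged from -0.11 log2 (Ndufaf3) to 0.14 log2 (Ndufaf1), with 0 calls by limma on quantile normalized values (0 also at an unadjusted p under 0.05).

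A pair of complex I subunits had the largest differences of all members, and both rested on 1 array. Ndufa5, an accessory subunit of the peripheral arm, was at 10.13 and 8.14 log2 with EGF and at 9.96 and 10.19 log2 with conditioned medium. EGF replicate 2 alone was low, by 1.82 log2 below the lowest of the other 3 arrays. Its difference of 0.94 ± 0.44 log2 (SE, limma adjusted p = 0.133) was -0.06 log2 without EGF replicate 2. Ndufb8, of the membrane arm, was at 9.64 and 8.20 log2 with EGF and at 9.75 and 9.55 log2 with conditioned medium (0.73 ± 0.33 SE, adjusted p = 0.113), and its difference was 0.01 log2 without EGF replicate 2. With EGF replicate 1 left out instead, which leaves the low array as the only EGF array, the differences of Ndufa5 and Ndufb8 were 1.93 and 1.45 log2 (limma adjusted p = 0.0154 and 0.017), and both passed under all 3 scalings. Ndufs6 (0.21 log2) and Ndufs7 (0.28 log2), also of the peripheral arm, were low in the same array by 0.41 and 0.40 log2, and differed by -0.03 and 0.09 log2 without it. So were Sdhb of complex II, by 0.38 log2, and Cox6a1 of complex IV, by 0.26 log2. Without EGF replicate 1, Ndufs6, Ndufs7 and Sdhb passed the threshold after quantile normalization, with differences of 0.45, 0.48 and 0.46 log2 (limma adjusted p = 0.0309, 0.0288 and 0.0302), but not under all 3 scalings. That of Cox6a1 was then 0.37 log2. Of 83 members, 6 (7.23%) lay over 0.25 log2 below the other 3 arrays in EGF replicate 2, against 5.14% of all genes tested. The first EGF array had 1 such member, and the treated arrays had 0 and 1. In EGF replicate 2 the share was 2.58% among the equally bright genes, a background for the bright members only. Ndufa5, Ndufb8 and Ndufs7 were dimmer than the limit of 10.80 log2, with deposited means of 9.60, 9.28 and 10.64 log2.

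**Figure D4:**
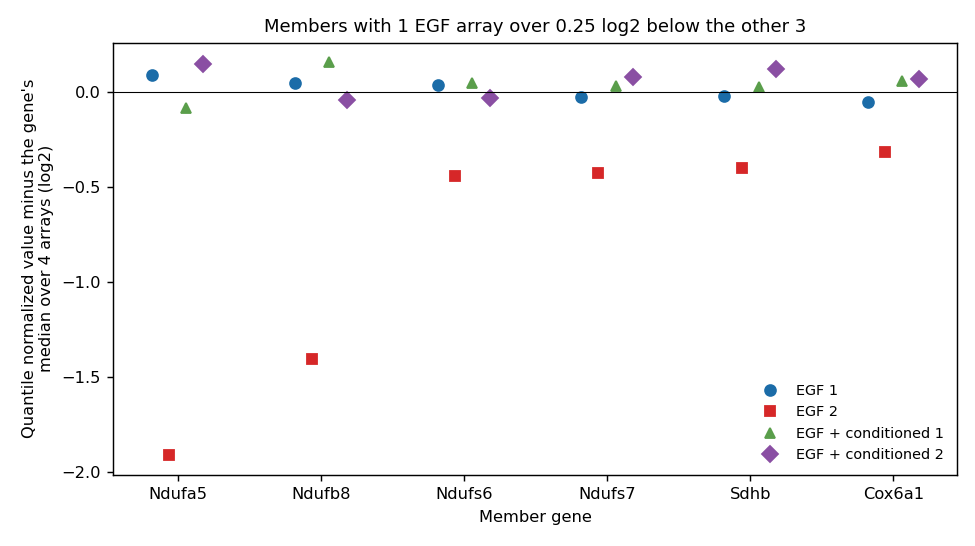
Quantile normalized value of each array minus the gene's median over the 4 arrays (y axis, log2) for the 6 members (x axis) in which EGF replicate 2 lay more than 0.25 log2 below the other 3 arrays. The squares of EGF replicate 2 lie apart from the other arrays, which sit close together, farthest for Ndufa5 and Ndufb8.

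Of the 4 subunits of complex II, which is also an enzyme of the tricarboxylic acid cycle, 0 passed the test on quantile normalized values (limma; 1 higher and 0 lower at an unadjusted p under 0.05). Sdha, the flavoprotein that oxidizes succinate, was at 11.05 and 10.96 log2 with EGF and 10.85 and 10.96 log2 with conditioned medium (-0.10 ± 0.07 SE). Sdhb, the iron-sulfur subunit, was at 11.82 and 11.44 log2 with EGF and 11.86 and 11.96 log2 with conditioned medium (0.28 ± 0.10 SE, limma adjusted p = 0.063). That difference was 0.09 log2 without EGF replicate 2. The membrane anchors Sdhc (0.10 log2) and Sdhd (-0.09 log2) lay on either side of 0.

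In complex III, Uqcr11, the smallest subunit, was higher, and the other 6 members did not pass. Uqcr11 was at 10.99 and 11.05 log2 with EGF and at 11.41 and 11.35 log2 with conditioned medium. Both treated arrays were above both EGF arrays (0.36 ± 0.07 SE, limma adjusted p = 0.00248, a 1.28-fold difference), also on deposited values (0.67 log2). With median-centred arrays its difference was 0.11 log2 and did not pass. Its limma adjusted p was 0.0506 without EGF replicate 1 and 0.0754 without the first treated array. The Rieske iron-sulfur protein Uqcrfs1 was at 12.16 and 12.26 log2 with EGF and 12.15 and 12.23 log2 with conditioned medium, and its groups overlapped (-0.03 ± 0.06 SE). The core proteins Uqcrc1 (0.01 log2) and Uqcrc2 (-0.02 log2), the hinge protein Uqcrh (0.09 log2) and the small subunits Uqcr10 (-0.01 log2) and Uqcrq (0.08 log2) lay within 0.1 log2 of 0.

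Complex IV held the only member that rose. Cox6b2, the testis form of a subunit that faces the space between the membranes, was at 6.34 and 6.44 log2 with EGF and at 6.98 and 7.20 log2 with conditioned medium. The groups did not overlap, also as deposited, where the values were 5.93 and 6.27 log2 against 7.35 and 7.32 log2. The rise was 1.62-fold after quantile normalization (0.70 ± 0.16 SE, 95% interval 0.35 to 1.04, limma adjusted p = 0.00603). With any 1 of the 4 arrays left out, the call was lost on quantile normalized values (adjusted p = 0.0609 to 0.102), with differences of 0.60 to 0.83 log2. The common form Cox6b1 was at 12.09 and 12.06 log2 with EGF and 12.04 and 12.13 log2 with conditioned medium, so that its groups overlapped (0.01 ± 0.06 SE, interval -0.13 to 0.15). Cox6a1, the common form of a further small subunit, was at 12.27 and 12.004 log2 with EGF and 12.37 and 12.39 log2 with conditioned medium (0.24 ± 0.08 SE, adjusted p = 0.0427). The lower EGF value was that of replicate 2, and the difference was 0.11 log2 without it (adjusted p = 0.24) and -0.02 log2 with median-centred arrays.

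The other isoforms of complex IV known from muscle, lung or testis were dim. Cox4i2, a form of the regulatory subunit found in lung, was at 6.97 and 7.32 log2 with EGF and 7.15 and 7.25 log2 with conditioned medium, with overlapping groups (0.06 ± 0.15 SE), beside -0.08 ± 0.06 log2 for the common form Cox4i1. Cox7a1, a muscle form, was at 6.24 and 5.96 log2 with EGF and 6.09 and 5.64 log2 with conditioned medium (-0.24 ± 0.22 SE). The muscle forms Cox6a2 and Cox8b and the testis form Cox7b2 were too dim to be tested, at 4.50, 4.37 and 3.40 log2 on average as deposited where testing began at 4.77 log2. Cox6a2 was at 4.34 and 4.22 log2 with EGF and 4.47 and 4.91 log2 with conditioned medium. Its treated arrays were the higher ones. Cox8a, the common form, differed by -0.02 ± 0.07 log2. Of the remaining common subunits, Cox5b, Cox6c, Cox7b and Cox7c, and Cox7a2l, which links complexes III and IV, lay between -0.11 and -0.01 log2. Cox6c-ps1 (-0.26 ± 0.23 SE) was dim, and whether its probes also read Cox6c was not tested. The only probe set that names Cox5a alone was also dim (5.66 log2, difference 0.02 ± 0.22 SE), while a bright probe set that names Cox5a and a second gene stood at 12.36 log2 and differed by -0.18 log2.

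In complex V, 2 of 16 genes were lower after quantile normalization (12.5%, against 14.6% of all genes tested) and 0 were higher. After quantile normalization 14 of the 16 differences were below 0 (599 of the 1165 equally bright genes). As deposited all 16 were above 0, as were 1050 of the 1165 equally bright genes. Atp5f1b, the catalytic beta subunit, was at 13.01 and 13.08 log2 with EGF and at 12.86 and 12.84 log2 with conditioned medium. Its groups did not overlap (-0.19 ± 0.06 SE, limma adjusted p = 0.0254). Atp5f1c, the rotating gamma subunit, was at 12.73 and 12.72 log2 with EGF and 12.54 and 12.55 log2 with conditioned medium (-0.18 ± 0.06 SE, adjusted p = 0.0303). On deposited values the sign of both turned, to 0.12 and 0.13 log2, and the treated arrays of Atp5f1c were then the higher ones. The alpha subunit Atp5f1a, which forms the catalytic ring with beta, differed by -0.09 ± 0.06 log2. Atp5mc3, for the ring that protons turn, differed by -0.15 ± 0.06 log2 (limma adjusted p = 0.0786). Atp5mf, a small membrane subunit, had the highest difference (0.07 ± 0.06 SE), and Atp5mg, of the same membrane part, was at 12.38 and 12.37 log2 with EGF and 12.34 and 12.38 log2 with conditioned medium. The inhibitor Atp5if1 differed by -0.07 ± 0.07 log2. The SD of the 16 differences was 0.07 log2. After quantile normalization the 95% interval lay within 0.5 log2 of 0 for all 16, against 80.6% of the 1165 equally bright genes.

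**Figure D5:**
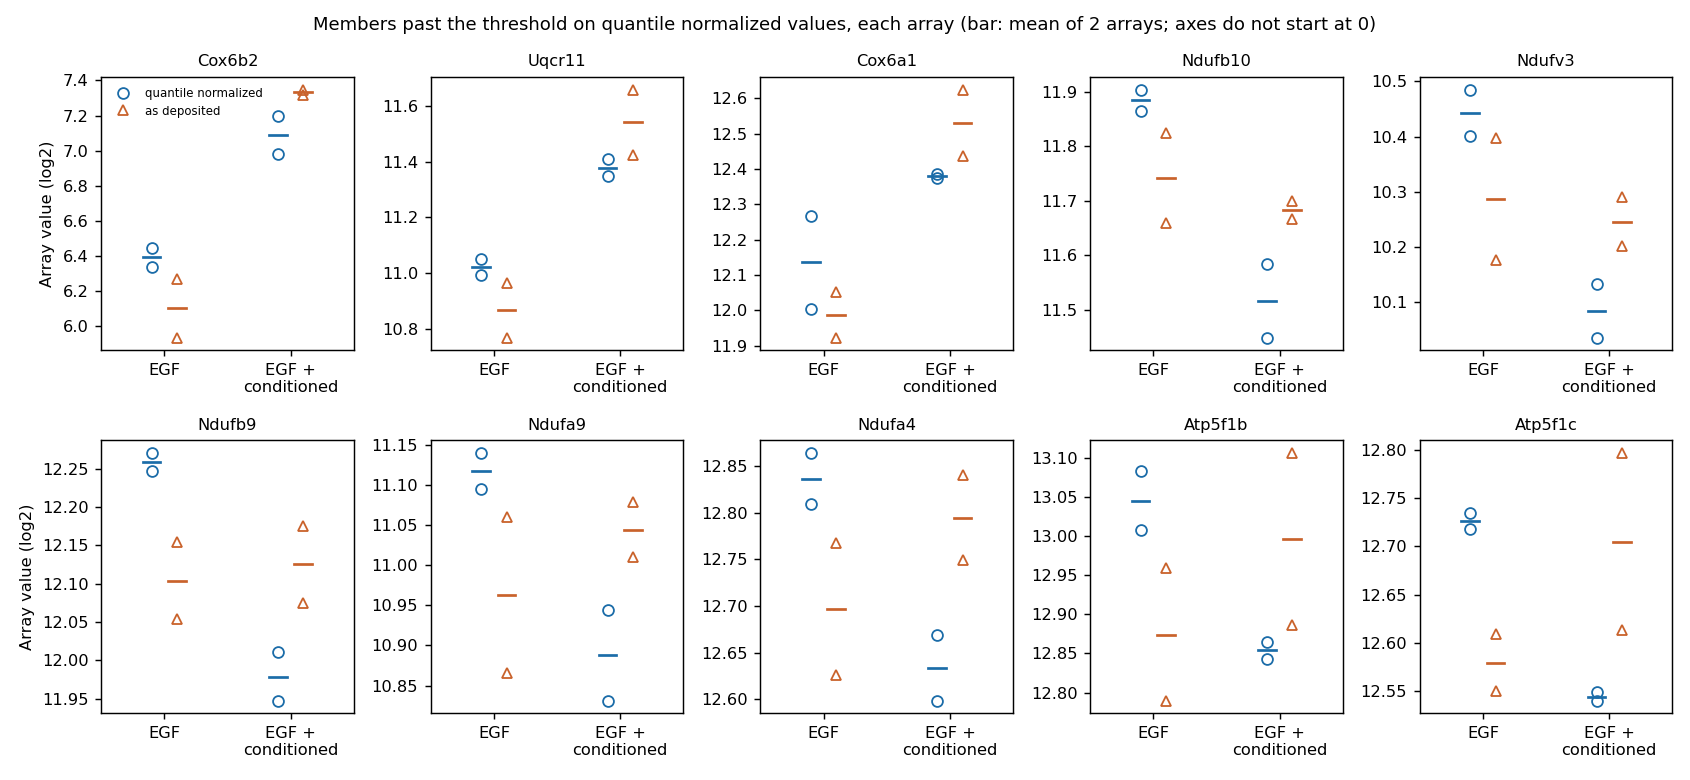
Value of each array (y axis, log2) in EGF and in EGF with conditioned medium (x axis) for the 10 members past the threshold on quantile normalized values. Circles are quantile normalized and triangles deposited values, and bars are means of 2 arrays. The circles of the 2 groups do not overlap in any of the 10 members, while the triangles of Ndufb10, Ndufv3, Ndufb9, Ndufa9, Ndufa4 and Atp5f1b do.

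Further probe sets were present for 9 members. In 5 of them a dimmer probe set had a difference of the opposite sign: Ndufa7 (0.07 and -0.48 log2), Sdhd (-0.09 and 0.07 log2), Uqcrc2 (-0.02 and 0.22 log2), Atp5me (-0.05 and 0.10 log2) and Atp5po (0.01 and -0.42 log2). The dimmer probe sets of Atp5me and Atp5po stood at 5.20 and 4.65 log2. That of Ndufa7 stood at 8.56 log2 against 11.07 log2 for its brightest. Of the 7 probe sets that name a subunit together with a further gene, only that of Cox5a concerns a member. After quantile normalization they differed by -0.29 to 0.21 log2, and only that of Atp5mc2 was higher (0.21 log2). Those of Atp5mc1, Ndufs5, Ndufa10 and Cox7a2 were lower (-0.29, -0.29, -0.26 and -0.25 log2). So were those of Cox5a and Uqcrb (-0.18 and -0.14 log2). The signals of genes that share a probe set cannot be told apart on the array.

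Other genes of mitochondrial energy metabolism were taken from lists. Of the subunits encoded by mitochondrial DNA, COX1 and COX2 were measured. COX1 was at 13.63 and 13.67 log2 with EGF and 13.43 log2 in both treated arrays (-0.22 ± 0.05 SE, limma adjusted p = 0.00782), but differed by 0.00 log2 as deposited. COX1 and COX2 were among the brightest probe sets, where quantile normalization fixes the value by rank, as in the equal treated values of COX1. COX2 differed by 0.18 log2 as deposited. Of 38 tested assembly factors of the respiratory chain, 0 rose or fell (1 and 7 were higher and lower on quantile normalized values at an unadjusted p under 0.05), and 4 were lower after quantile normalization, the copper chaperone Sco1 (-0.32 log2), the complex IV factors Surf1 (-0.24 log2) and Cox20 (-0.47 log2) and the complex III factor Ttc19 (-0.43 log2). Of 12 genes of coenzyme Q synthesis, 0 rose or fell (3 lower at an unadjusted p under 0.05 after quantile normalization), and Coq8b was lower after quantile normalization (-0.60 ± 0.12 SE).

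Of 22 genes of the tricarboxylic acid cycle and pyruvate entry, 2 rose and 0 fell. These were Suclg2, a subunit of succinate-CoA ligase, from 9.82 and 9.76 log2 to 10.61 and 10.36 log2, and the pyruvate dehydrogenase kinase Pdk4, from a dim 4.85 and 4.84 log2 to 5.38 and 5.88 log2. Of 21 regulators of mitochondrial biogenesis, 1 fell and 0 rose. The orphan nuclear receptor Esrrg, which drives oxidative genes, fell from 11.23 and 11.00 log2 to 10.39 and 10.38 log2 (-0.73 ± 0.09 SE, limma adjusted p = 1.21e-04). The coactivator Ppargc1a was lower after quantile normalization (-0.66 ± 0.15 SE) and differed by -0.14 log2 as deposited, while the related coactivator Pprc1 was higher (0.41 ± 0.10 SE). Of 15 mitochondrial carriers and channels, 2 rose, the aspartate and glutamate carrier Slc25a13 (0.57 ± 0.11 SE) and the uncoupling protein Ucp2 (0.51 ± 0.16 SE). Of 19 genes of import and cristae, the import chaperone Timm8a1 rose (0.82 ± 0.08 SE) and 0 fell. After quantile normalization 4 of the 19 were higher and 2 lower, against 16.4% and 14.6% of all genes tested. Their median was 0.13 log2, with 14 differences above 0. Of 17 tested glycolysis genes Pfkp (0.70 ± 0.08 SE) and Ldhb (0.54 ± 0.08 SE) rose and 0 fell. The lactate dehydrogenase subunit Ldha was lower after quantile normalization (-0.42 ± 0.06 SE) and differed by -0.12 log2 as deposited. These counts stand beside the 9.12% and 1.78% of all genes tested that rose and fell.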

How the data were processed

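Per the labels' protocols, biotin-labelled RNA of 4 cultures was hybridized to Affymetrix Rat 230 2.0 arrays, and per the series' design text the authors ran RMA in GenePattern. The deposited log2 values come from that step, whose settings are not given in these sources. The deposited log2 values ranged over different medians by array, so limma's normalizeQuantiles was applied to all 31099 probe sets, and deposited and median-centred values were alternatives. Of the probe sets, 20826 had 1 gene symbol in the platform annotation, 436 several and 9780 none, and 57 were controls, which were not used for genes. All 86 members matched RefSeq (assembly GRCr8) by gene identifier. Genes were not tested where even the brightest probe set fell among the dimmest 30% by mean deposited value (under 4.77 log2), which left 11491 genes and 83 members.

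Conditioned medium minus EGF was fitted over all genes with limma 3.58.1 in R 4.3.3 (lmFit and trended eBayes; two-sided p-values, Benjamini-Hochberg adjusted over all genes tested), without a block. On deposited values the prior took over all spread from the trend; after quantile normalization it had 8.71 degrees of freedom. The procedure was tested on simulated data. Array number limits the precision. The members and gene lists were chosen with earlier results of these data known. Members named are all with an adjusted p under 0.05 after quantile normalization, the brightest, highest and lowest of each complex, tissue isoforms and those whose probe sets differ in sign, and others were chosen after their values were seen. Alternatives were the scaling, the dim filter, the mean of all probe sets, eBayes without a trend, the replicate as a block and leaving out each array.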

Additional observations from a re-analysis of the deposited data

How the results depend on the processing

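The count of members that passed moved with the scaling, from 3 higher and 7 lower after quantile normalization to 19 and 0 as deposited and 1 and 47 with median-centred arrays, and their median from -0.05 to 0.28 and -0.29 log2. Over all genes the counts were 4643 higher and 205 lower as deposited and 1176 and 3704 with median-centred arrays. Of 83 members, 55 had a difference below 0 after quantile normalization and 2 as deposited, against 5697 and 1241 of the 11491 genes tested. Of those past the threshold, the sign reversed for Atp5f1b (0.12 log2), Atp5f1c (0.13 log2), Ndufa4 (0.10 log2), Ndufa9 (0.081 log2) and Ndufb9 (0.021 log2) as deposited and Cox6a1 (-0.023 log2) with median-centred arrays. The lower members numbered 4 with no filter on dim probe sets and 2 with eBayes without a trend, which also gave 130 genes lower under all 3 scalings. In a fit blocked on replicate number (the replicate block), a number which the labels do not tie to shared embryos, 2 members passed under all 3 scalings (Cox6b2 and Ndufb8, the latter with a limma adjusted p of 0.0271 after quantile normalization), 28 genes were lower under all 3, and the other counts stayed within 1.5 times; the deviations of same-numbered arrays correlated at -0.03 (2 pairs). With single arrays left out, where the lone array is assumed to vary like the other group, 0 to 6 members were higher and 0 to 2 lower, 0 to 2 higher and 0 lower under all 3 scalings, and the members' median was -0.07 to -0.04 log2. Over all genes 557 to 1059 were then higher and 487 to 736 lower, and 506 to 850 and 43 to 103 under all 3 scalings. Cox6b2 passed under all 3 scalings with no filter, with the stricter filter, with the mean of all probe sets, without a trend and with the block. The causes of these changes were not tested. Only 2 arrays per group limit what can be seen: members with a 95% interval wider than 0.5 log2 on either side could differ by more than stated. The intervals hold for quantile normalized values and leave out the choice of scaling, so narrower ones set no bound on the other scales. Uqcr11 (interval 0.21 to 0.51 log2) differed by 0.67 log2 as deposited. Ndufb9 (interval -0.41 to -0.15 log2) differed by -0.55 log2 with median-centred arrays.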
